A study of Mus musculus with 5 samples.

Results

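An exon array reads a gene through many short probes, and the probes of one transcribed unit are summarised into one value, called a transcript cluster and here a row. The rows described below are those that the array's platform annotation pairs with at least 2 gene symbols, so that each row holds a single intensity for several named genes. They number 864 of the 65529 rows of the deposited table, beside 14011 rows with 1 symbol and 50654 rows with none. In 855 of the 864 rows the symbols differ, and in 9 rows the same symbol is entered more than once. Most of the rows, 641, carry 2 different symbols, 123 carry 3, and the largest rows carry 13. A row's value cannot be attributed to one of its symbols, so each row is written below with its row identifier and all of its symbols.

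The arrays compared CD4 single-positive thymocytes of PLZF transgenic mice with those of wild type mice. The 3 PLZF transgenic samples and 2 wild type samples were hybridised, 1 array each, and the labels call the samples of a genotype biological replicates. All mice were on the C57BL/6J background and 4 to 6 weeks old, and RNA came from thymocytes sorted as CD4+ CD8-, with several mice pooled for each sample. The labels used here do not name the promoter that drives the transgene, and the p-values below measure the spread between these 5 pooled samples. The rows of Zbtb16, the gene that encodes PLZF, of Cd4 and of Cd8a were not analysed here.

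PLZF is a BTB zinc finger transcription factor that directs the innate-like effector programme of natural killer T cells, and conventional CD4 single-positive thymocytes express little of it. Mouse genes of immune families often stand in clusters of near-copies made by duplication, among them the apolipoprotein L, MS4A, LY6, immunity-related GTPase, histone, zinc finger and T cell receptor segment genes. Probes in sequence shared by such copies cannot tell them apart, and an annotation can also join neighbouring or overlapping genes in one row.

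The symbols of a row stood in different relations to each other. In 395 rows all symbols shared their first letters, as in Apol9a and Apol9b. In 198 rows at least 1 symbol was a predicted or clone-type name, in 258 rows the symbols had different names, and in 4 rows a small RNA was paired with another gene. By their positions in RefSeq's GRCm38.p6 annotation, the symbols lay within 100 kb of each other in 405 rows and within 1 Mb in a further 85. They overlapped in 61 rows and lay on different chromosomes in 208 rows, while 58 rows had fewer than 2 symbols placed. Rows were not independent of each other, because 403 of the 864 shared a symbol with another of these rows.

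The regions around the transcription starts of a row's genes were compared. A region held the 250 bases before and 50 bases after a gene's first listed start in RefSeq (GRCm38.p6). Identity of these regions does not measure how alike the transcripts are that the probes read. Each pair shown comes from a row that changed by a large amount. The Apol9a and Apol9b pair is shown because both of its rows fell in the transgenic arrays and because its starts are near-copies. Capitals mark 2 overlapping matches to GAAANNGAAA, searched on both strands, a spacing of the kind found in interferon-stimulated response elements.
Apol9a (GRCm38.p6 chr15:77411031-77411330, minus strand): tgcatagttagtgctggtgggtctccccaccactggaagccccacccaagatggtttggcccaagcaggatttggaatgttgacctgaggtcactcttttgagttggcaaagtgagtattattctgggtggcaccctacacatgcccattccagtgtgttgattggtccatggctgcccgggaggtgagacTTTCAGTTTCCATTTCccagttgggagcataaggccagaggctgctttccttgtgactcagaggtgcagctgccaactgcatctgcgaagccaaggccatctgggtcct
Apol9b (GRCm38.p6 chr15:77728822-77729121, plus strand): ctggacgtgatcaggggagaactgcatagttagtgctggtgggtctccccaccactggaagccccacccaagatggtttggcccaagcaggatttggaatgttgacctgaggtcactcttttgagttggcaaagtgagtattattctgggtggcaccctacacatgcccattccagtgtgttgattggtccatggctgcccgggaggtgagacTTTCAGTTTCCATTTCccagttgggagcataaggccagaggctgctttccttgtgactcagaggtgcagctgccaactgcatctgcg
The Ly6c1 and Ly6c2 pair, and the Tagap and Tagap1 pair, are shown because their rows rose and their starts are less alike, with no letters in capitals.
Ly6c1 (GRCm38.p6 chr15:75048788-75049087, minus strand): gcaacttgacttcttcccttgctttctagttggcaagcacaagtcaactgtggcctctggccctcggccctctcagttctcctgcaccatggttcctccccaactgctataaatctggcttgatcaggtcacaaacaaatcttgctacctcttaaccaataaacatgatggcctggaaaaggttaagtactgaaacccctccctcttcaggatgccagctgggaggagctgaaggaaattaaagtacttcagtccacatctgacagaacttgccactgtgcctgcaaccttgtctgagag
Ly6c2 (GRCm38.p6 chr15:75111922-75112221, minus strand): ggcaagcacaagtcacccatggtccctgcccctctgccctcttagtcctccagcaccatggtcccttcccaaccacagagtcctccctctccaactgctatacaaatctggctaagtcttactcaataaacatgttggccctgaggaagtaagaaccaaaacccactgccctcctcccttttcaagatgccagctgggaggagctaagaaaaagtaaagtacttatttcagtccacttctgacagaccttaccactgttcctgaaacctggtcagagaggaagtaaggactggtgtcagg
Tagap (GRCm38.p6 chr17:7925750-7926049, plus strand): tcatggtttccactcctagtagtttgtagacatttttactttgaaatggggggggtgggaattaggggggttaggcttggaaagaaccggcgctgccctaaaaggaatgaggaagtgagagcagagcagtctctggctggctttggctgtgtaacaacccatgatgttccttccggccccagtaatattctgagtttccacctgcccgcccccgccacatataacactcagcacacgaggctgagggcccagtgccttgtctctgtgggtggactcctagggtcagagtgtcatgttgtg
Tagap1 (GRCm38.p6 chr17:6961107-6961406, minus strand): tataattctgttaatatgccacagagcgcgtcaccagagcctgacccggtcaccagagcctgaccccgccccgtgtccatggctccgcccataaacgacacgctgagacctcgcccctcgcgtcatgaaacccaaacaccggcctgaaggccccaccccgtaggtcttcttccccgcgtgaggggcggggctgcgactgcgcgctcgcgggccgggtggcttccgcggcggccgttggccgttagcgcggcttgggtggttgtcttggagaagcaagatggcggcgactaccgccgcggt

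The Apol9a and Apol9b regions were identical over the 278 bases in which they align, offset by the position of the listed start, and 86.3% identical when the unaligned ends are counted. In Apol9a the first match began 59 bases before the listed start and the second 53 bases before it. In Apol9b they began 37 and 31 bases before it. Identity was 62.9% between Ly6c1 and Ly6c2 and 45.4% between Tagap and Tagap1. The latter was no higher than between genes with unlike names, such as Trat1 and Twistnb (47.6%) or Phyhd1 and Lrrc8a (46.8%). GAAANNGAAA was found in 1131 of 32851 start regions in the RefSeq table (3.44%). Of the 51 symbols with a start region in rows past the threshold, Apol9a and Apol9b were the 2 that held it. They come from 26 of the 30 rows, and the row of Gm4951, Iigp1 and F830016B08Rik was not searched. A match describes letters in this window and says nothing of a factor's binding.

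On each array the values are intensities that the authors normalised with RMA. They were set on a log2 scale after adding 1, and the genotypes were compared with limma over all 14875 rows that carry a symbol. A row passed at a Benjamini-Hochberg adjusted p under 0.05 over all of those rows. Median intensities were alike on the 5 arrays, between 59.0 and 60.3. Over the 864 rows the log2 values correlated at 0.9956 to 0.9963 between transgenic arrays, at 0.9943 between the wild type arrays and at 0.9884 to 0.9912 between genotypes. Markers of other cell types were compared in single-symbol rows, with the row of highest mean taken for each marker. None of these rows was at 0. The 5 measured B cell markers summed to intensities of 382 to 408 on transgenic arrays and 374 to 381 on wild type arrays, and 8 macrophage and dendritic cell markers to 1992 to 2088 and 2029 to 2238. The 4 measured markers of double-positive and immature thymocytes summed to 1479 to 1544 on transgenic arrays and 1576 to 1579 on wild type arrays. Most of that sum was Themis, with a log2 change of -0.02. Dntt had -0.54 (adjusted p = 0.248 in limma), while Rag2 and Ptcra had 0.12 and 0.02, so these markers did not move together. Of the 8 thymic stroma markers 1 passed the test as lower, the endothelial gene Pecam1, with intensities of 1146 to 1180 on transgenic arrays and 1384 to 1476 on wild type arrays. The other 7 summed to 578 to 585 on transgenic arrays and 573 to 578 on wild type arrays. Of 6 T cell markers 3 passed as lower, where 2.6% of all rows tested did. The 6 markers summed to 12283 to 12533 on transgenic arrays and 14872 to 15464 on wild type arrays. No erythroid marker had a single-symbol row. The part of these shifts in the results below was not tested. In such sorted bulk samples fewer cells of a type and less RNA per cell cannot be told apart.

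Among the rows with several symbols that passed the test, the largest rise in PLZF transgenic thymocytes was in an interferon-inducible GTPase row, and the largest falls were in both rows of the apolipoprotein L genes Apol9a and Apol9b. Rows of the RhoGTPase regulator Tagap, of the surface protein genes Ly6c1 and Ly6c2 and of the interleukin-6 receptor gene Il6ra rose, while rows of the MS4A membrane protein genes, of a T cell receptor alpha segment and of a histone H2B group fell. In all, 12 rows passed as higher in the transgenic arrays, where 1.46% of all rows tested did, and 18 passed as lower, where 2.6% of all rows did. Together these were 3.47% of the 864 rows, and 4.10% of the rows with 1 symbol passed, so that the share that passed was near that of the table. With a log2 change of at least 1 required as well, 2 rows were higher (0.316% of all rows) and 4 were lower (0.578% of all rows). The arrays of the genotypes did not overlap in 109 rows as higher (12.7% of all rows) and in 140 rows as lower (15.3% of all rows). The median change was 0.00 over the 864 rows and also over all rows tested, and 12 of the 30 rows that passed share a symbol with another of the 864.

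The number of rows past the threshold depended on single arrays and on which rows entered the fit. Without transgenic replicate 1, 2 or 3, between 0 and 1 of the 864 rows passed in either direction in limma, with 48 to 55 higher and 55 to 63 lower at an unadjusted p under 0.05. With weights estimated for each array none passed, with 33 higher and 40 lower at an unadjusted p under 0.05. Without wild type replicate 1, 62 passed as higher and 102 as lower, and without wild type replicate 2 the counts were 64 and 41. With every row of the table in the fit, 1 row passed as higher and 1 as lower, and after quantile normalisation 32 passed as higher and 31 as lower, a split nearer to even. In the 30 rows that passed, the log2 change itself moved by at most 0.18 with any 1 array left out, the most in an Apol9 row, with a median over the rows of 0.05. Rows that did not pass could move far more, as that of Cox7a2l and Gm6969, whose change lay between 0.04 and 0.87. Passing the test favours rows with a small spread between arrays, so this contrast follows in part from the selection and is no measure of stability.

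**Figure D1:**
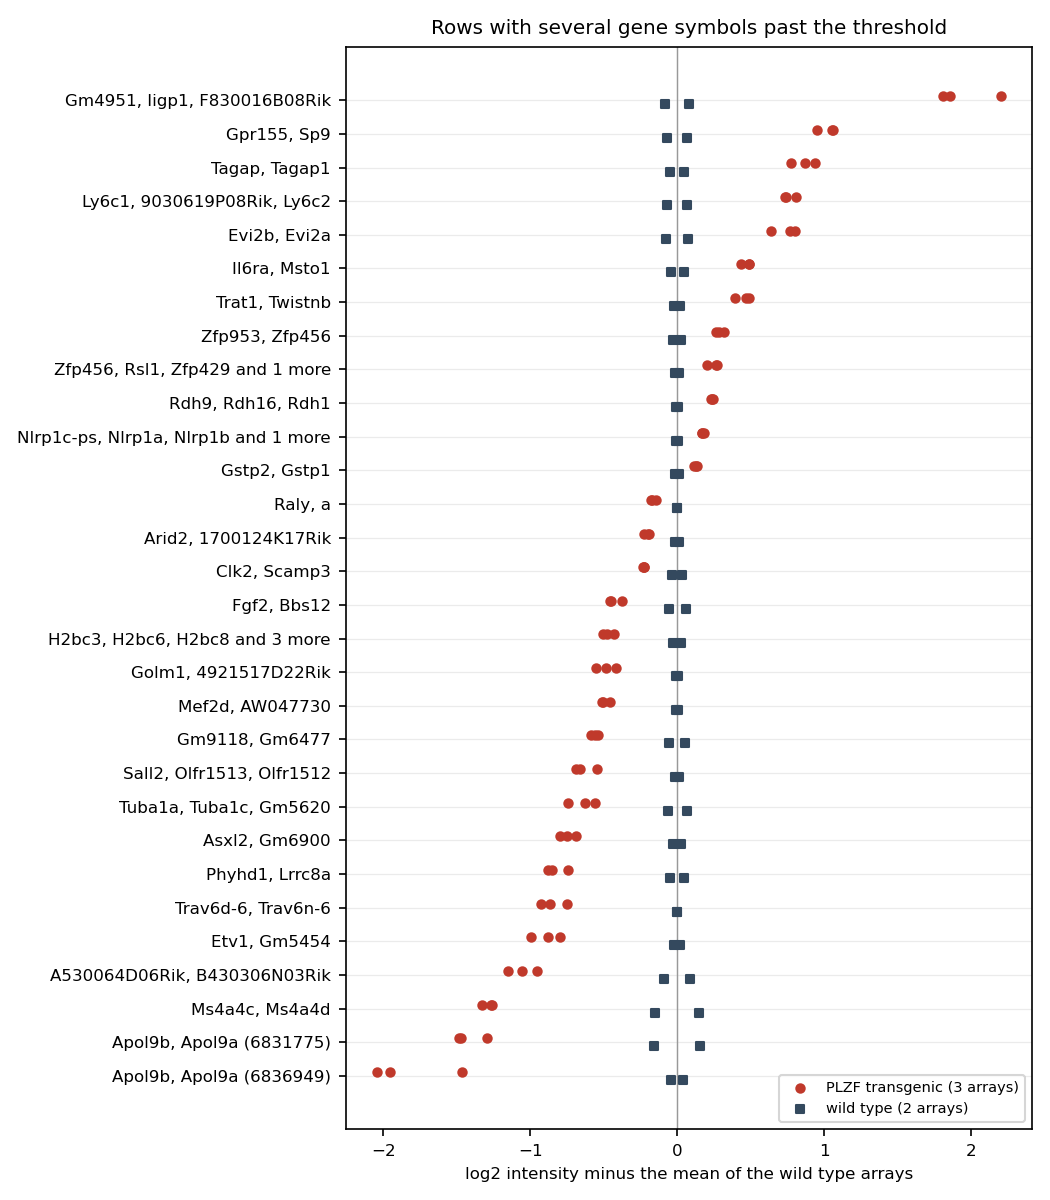
Log2 intensity of each array minus the mean of the wild type arrays, for the 30 rows with several symbols that passed the threshold, ordered by change. Circles are the 3 PLZF transgenic arrays and squares the 2 wild type arrays; the genotypes do not overlap in any row, and changes run from -1.82 to 1.96.

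The largest rise was in a row of interferon-inducible GTPases. Iigp1 encodes an immunity-related GTPase that interferon gamma induces and that attacks the vacuoles of intracellular pathogens. The row of Gm4951, Iigp1 and F830016B08Rik (6861308) had log2 intensities of 9.99, 9.59 and 9.64 on the transgenic arrays, against 7.70 and 7.86 on the wild type arrays. Each transgenic array was far above both wild type arrays. The row rose by 1.96 on the log2 scale (SE 0.16, adjusted p = 0.0248), which is 3.88-fold. Apol9a and Apol9b encode cytoplasmic apolipoprotein L proteins that interferon induces in mouse cells, and 2 rows carry both symbols. In row 6836949 the transgenic arrays had 7.03, 6.45 and 6.54, against 8.45 and 8.53 on the wild type arrays. In row 6831775 they had 6.58, 6.60 and 6.77, against 7.91 and 8.23. No transgenic value reached a wild type value in either row. The changes were -1.82 (SE 0.22, adjusted p = 0.049) and -1.42 (SE 0.13, adjusted p = 0.0312), 3.53-fold and 2.67-fold lower. The rows share both symbols, so they do not count as independent measurements.

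Of the 12 rows with a symbol of an interferon-inducible family (Gbp, Ifi, Slfn, Iigp, Irg, Oas, Ifit and the like, without Apol9), the Iigp1 row rose and none fell. At an unadjusted p under 0.05, 3 were higher and 0 lower. Their median change was 0.03. Igtp and Irgm2 (6781248), a further pair of immunity-related GTPases, had 10.58, 10.46 and 10.34 on the transgenic arrays, against 9.90 and 10.07 on the wild type arrays. These groups did not overlap, with a change of 0.48 (adjusted p = 0.135). Ifi204 and Ifi207 (6764235), DNA sensors of the PYHIN family, had a change of -0.38 (adjusted p = 0.345). Of the 38 rows with 1 symbol of these families, 1 rose and 5 fell. Over all rows tested 1.46% rose and 2.6% fell. Among the 12 rows of the histocompatibility genes (symbols starting H2-), limma called 0 in either direction, and at an unadjusted p under 0.05 none was higher and 1 lower. The row with the largest change held H2-Q8, H2-Q7, H2-Q6, H2-Q1, H2-gs10 and 0610037M15Rik (6850163), at 0.41 (adjusted p = 0.459).

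Surface receptors and membrane proteins of leukocytes gave 29 rows, with a median change of 0.00. Of these, 2 rose and 1 fell, where 1.46% and 2.6% of all rows tested did. Ms4a4c and Ms4a4d (6868091) belong to the MS4A family of membrane-spanning proteins. Their row had 7.85, 7.79 and 7.86 on the transgenic arrays, against 8.97 and 9.27 on the wild type arrays. The transgenic values lay close together and below both wild type values, a change of -1.28 (SE 0.11, adjusted p = 0.0255), 2.44-fold lower. Ly6c1 and Ly6c2 encode Ly6C, a lipid-anchored surface protein of monocytes and of some T cells. The row of Ly6c1, 9030619P08Rik and Ly6c2 (6836729) had 7.70, 7.63 and 7.63 on the transgenic arrays, against 6.82 and 6.96 on the wild type arrays. It rose by 0.76 (SE 0.055, adjusted p = 0.022), and all transgenic arrays were above the wild type ones. Il6ra encodes the interleukin-6 receptor alpha chain and Msto1 a mitochondrial protein. Their row (6906788) had 11.12, 11.17 and 11.18 on the transgenic arrays, against 10.64 and 10.73 on the wild type arrays. The change was 0.47 (SE 0.038, adjusted p = 0.0245).

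The Ly6c row is the only row with several symbols among the listed genes of naive and recirculating T cells, and its rise stood against most of that list. Of 26 single-symbol rows of the list, 1 rose and 14 fell, where 1.46% and 2.6% of all rows tested did. Their median change was -0.47. Tagap, a RhoGTPase-activating protein of activated T cells that takes part in thymocyte migration, was likewise the only such row in the list of genes induced by T cell receptor signals. The row of Tagap and Tagap1 (6848553) had 10.87, 10.94 and 10.77 on the transgenic arrays, against 10.05 and 9.95 on the wild type arrays. It rose by 0.86 (SE 0.066, adjusted p = 0.0228), with no overlap between genotypes. Of 18 single-symbol rows of that list none rose and 7 fell, with a median of -0.40. Both lists were written with earlier results of these data known, so their counts are no independent backdrop to the Ly6c and Tagap rows. None of the 4 rows with several symbols of the cytotoxic and natural killer list passed. The row of Gzme and Gzmd (6824870), granzymes of cytotoxic cells, had a change of -0.26 that lay between -0.55 and 0.04 with any 1 array left out.

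Trat1 encodes an adaptor that associates with the T cell receptor complex, and Twistnb a subunit of RNA polymerase I. Their row (6846105) had 11.34, 11.32 and 11.25 on the transgenic arrays, against 10.87 and 10.83 on the wild type arrays, a rise of 0.45 (SE 0.037, adjusted p = 0.0248). Gpr155, a lysosomal membrane protein that senses cholesterol, shares a row with the neighbouring gene Sp9, a transcription factor of the Sp family (6887830). It had 9.16, 9.27 and 9.27 on the transgenic arrays, against 8.15 and 8.28 on the wild type arrays. This was a rise of 1.02 (SE 0.062, adjusted p = 0.018), 2.03-fold. Evi2a and Evi2b are transmembrane protein genes nested within an intron of Nf1, and their row (6790046) had 9.44, 9.57 and 9.60 on the transgenic arrays, against 8.72 and 8.88 on the wild type arrays. The change was 0.74 (SE 0.08, adjusted p = 0.0412), and the groups did not overlap.

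Rows of T cell receptor alpha variable segments had large negative changes, and 1 of them passed the test. The segments are the parts from which the variable region of the receptor's alpha chain is chosen by recombination. Trav6d-6 and Trav6n-6 (6828202) had 8.99, 8.87 and 8.81 on the transgenic arrays, against 9.73 and 9.73 on the wild type arrays. The change was -0.85 (SE 0.062, adjusted p = 0.022), with a small spread between arrays. The row of Tcra with 5 Trav14 segments (6828195) had 6.29, 6.58 and 5.83 on the transgenic arrays, against 7.60 and 7.88 on the wild type arrays. Its change of -1.51 had a larger SE, 0.28, and an adjusted p of 0.1. The row of Tcra with 4 of those segments (6828176) had a change of -1.34 (adjusted p = 0.0856), and the row of Trav12d-1, Trav12d-2, Trav12n-1 and Trav12-1 (6828197) one of -1.19 (adjusted p = 0.143). All 5 Trav rows had negative changes, and the arrays did not overlap in 4 of them, where 15.3% of all rows tested were lower without overlap. Among the 369 rows with several symbols and 5 different values on the 5 arrays, 109 were. The 2 Tcra rows share most of their symbols.

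Rows of T cell receptor gamma segments were mixed. Trgv5, Trgv6, Trgv3 and Trgv2 (6805106) had 6.90, 7.25 and 7.72 on the transgenic arrays, against 5.77 and 6.43 on the wild type arrays. The groups did not overlap, yet the arrays of each genotype were spread, and the change of 1.19 had an SE of 0.36 and an adjusted p of 0.252. Trgv2, Trgv1 and Naip3 (6805108) had a change of -0.63 (adjusted p = 0.478). Over the 9 rows of receptor and immunoglobulin segments the median was -0.63, against 0.00 over all rows tested. The 6 single-symbol rows of such segments had a median of -0.32, and none passed.

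Histone rows leaned to lower values. Of 28 rows with a histone symbol, 24 had negative changes, and the median was -0.21. With no overlap between arrays 11 were lower and 1 was higher, where 15.3% and 12.7% of all rows tested were. However, 20 of the 28 rows had 5 different values on the 5 arrays, where 38.2% of all rows tested had. Among the 369 rows with several symbols and 5 different values, 109 were lower and 77 higher without overlap. Under median centring and cyclic loess 24 histone rows were negative, and under quantile normalisation 23. The 1 row that passed was that of H2bc3, H2bc6, H2bc8, H2bc23, H4bc24 and H2bc4 (6805380), most of whose symbols name histone H2B genes of the replication-dependent clusters. It had 5.59, 5.51 and 5.54 on the transgenic arrays, against 5.99 and 6.05 on the wild type arrays, a change of -0.47 (SE 0.034, adjusted p = 0.022). Another row with the same 6 symbols (6811690), dim at a mean log2 intensity of 3.70, had a change of -0.42 (adjusted p = 0.356). A further row of those symbols, with H2bc8 first (6805360), had -0.30 (adjusted p = 0.532). Other H2B readings were nearer no change. The row that also lists H1f4 (6811686), at a mean of 7.85, had -0.14. H2bc8 alone (6907256), at a mean of 7.20, had -0.0012, and row 6805370 had 0.04. The row with the most negative histone change, 6805382, carries 9 histone H2A symbols from H2ac4 to H2ac24. Its transgenic arrays had 9.20, 9.53 and 9.75, against 10.17 and 10.31 on the wild type arrays, a change of -0.75 (adjusted p = 0.193). The row of 13 histone H4 symbols with H4c8 first (6805355) had a change of -0.42 and lay just outside the threshold, at an adjusted p of 0.0528. Many of the rows list the same symbols in another order, so the 28 rows are not separate measurements. Among 25 single-symbol histone rows the median was -0.07, and none passed.

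**Figure D2:**
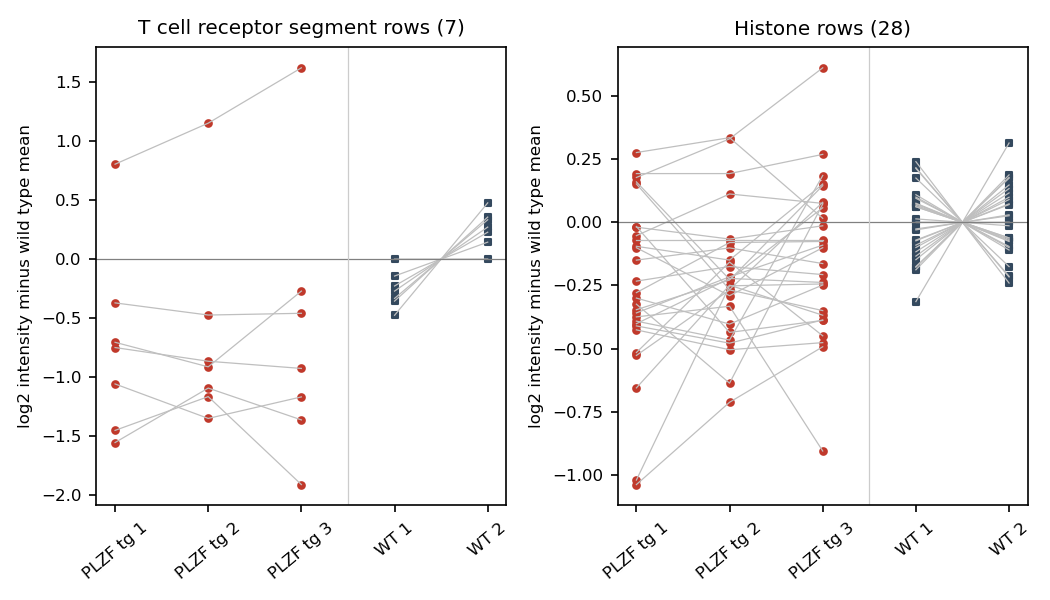
Log2 intensity of each array minus the mean of the wild type arrays, for the 7 T cell receptor segment rows and the 28 histone rows with several symbols, with lines joining the values of a row within a genotype. PLZF transgenic arrays (tg, circles) stand left of wild type arrays (WT, squares); 1 segment row is above and the others below 0 on the transgenic arrays, and histone rows lie mostly below 0 with wide spread.

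Further rows that passed carry genes of nuclear regulators. Etv1, an ETS family transcription factor, shares row 6809743 with Gm5454. It had 9.61, 9.41 and 9.53 on the transgenic arrays, against 10.38 and 10.42 on the wild type arrays. The change was -0.89 (SE 0.071, adjusted p = 0.0245). Mef2d, which responds to calcium signals, and AW047730 (6899097) had 10.35, 10.41 and 10.36, against 10.87 and 10.86, a change of -0.49 (SE 0.021, adjusted p = 0.0116). Asxl2, a partner of Polycomb proteins, and Gm6900 (6792935) had 8.32, 8.37 and 8.43, against 9.09 and 9.14, a change of -0.74 (SE 0.043, adjusted p = 0.0164). Sall2, a zinc finger transcription factor, shares row 6824633 with the olfactory receptor genes Olfr1513 and Olfr1512. Its change was -0.63 (SE 0.053, adjusted p = 0.0259). Arid2, a subunit of a SWI/SNF chromatin remodelling complex, and 1700124K17Rik (6832947) changed by -0.20 (SE 0.018, adjusted p = 0.0282).

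Rows of C2H2 zinc finger genes, most of them KRAB-type repressors in mouse, tended to small positive changes. Of 44 such rows 34 were above 0 and 6 below 0. With no overlap between arrays 15 were higher and 2 lower, where 12.7% and 15.3% of all rows tested were. Several of the 44 rows list the same symbols, so they are not separate measurements, and 13 had 5 different values on the 5 arrays. The median was 0.06, and under median centring 32 rows were positive and 12 negative. The 2 rows that rose share Zfp456, whose gene lies in the cluster of Rsl1, a repressor of male-specific liver genes in mouse. Zfp953 and Zfp456 (6814032) had 9.75, 9.69 and 9.71 on the transgenic arrays, against 9.40 and 9.46 on the wild type arrays. The change was 0.29 (SE 0.029, adjusted p = 0.035). Zfp456, Rsl1, Zfp429 and Zfp455 (6814018) had 8.01, 8.06 and 8.07, against 7.81 and 7.78, a change of 0.25 (SE 0.027, adjusted p = 0.0422). A row of the same 4 symbols in another order (6807816) had the larger change of 0.62 but did not pass (SE 0.12, adjusted p = 0.107). Of 213 single-symbol rows of zinc finger genes, 4 rose and 6 fell, with a median of 0.00. Over all rows tested 1.46% rose and 2.6% fell.

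**Figure D3:**
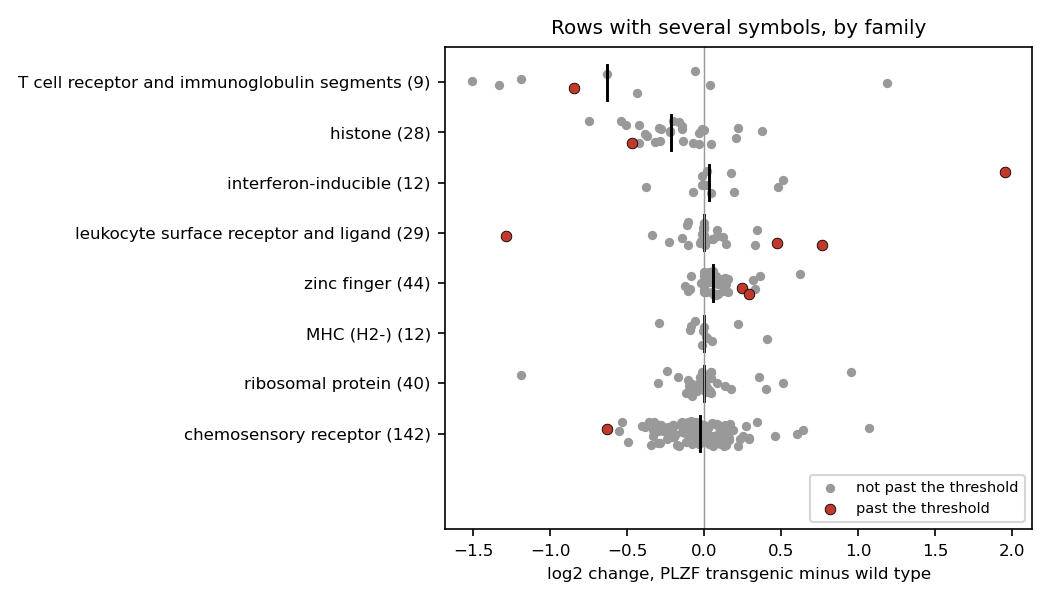
Log2 change, PLZF transgenic minus wild type, of rows with several symbols, grouped by the family of their symbols with the number of rows in parentheses. Each point is a row, filled red where it passed the threshold, and the black bar is the median; T cell receptor and histone medians lie at -0.63 and -0.21, and the others near 0.

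The remaining rows that passed had varied roles. Phyhd1, a dioxygenase, and Lrrc8a, a subunit of the volume-regulated anion channel, share row 6876052. It had 8.61, 8.47 and 8.50 on the transgenic arrays, against 9.30 and 9.40 on the wild type arrays. The change was -0.82 (SE 0.062, adjusted p = 0.0221). The alpha tubulin genes Tuba1a and Tuba1c with Gm5620 (6838417) had 10.86, 10.93 and 10.75, against 11.55 and 11.42, and the change of -0.64 was the last inside the threshold (SE 0.078, adjusted p = 0.0497). A row of the uncharacterised A530064D06Rik and B430306N03Rik (6850831), whose start regions were 96.4% identical, had 6.29, 6.19 and 6.09, against 7.15 and 7.33, a change of -1.05 (adjusted p = 0.0279). Gm9118 and Gm6477 (6768023) fell by 0.56 on the log2 scale.

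Smaller changes passed where the arrays of a genotype lay very close together. Rdh9, Rdh16 and Rdh1 (6771587), retinol dehydrogenases, rose by 0.24 with an SE of 0.0095. Nlrp1c-ps, Nlrp1a and Nlrp1b, inflammasome sensor genes, shared with Rbm7 the row 6789484, which rose by 0.17. Gstp2 and Gstp1 (6870969), glutathione transferases, rose by 0.13. The row of Golm1, a Golgi membrane protein, and 4921517D22Rik (6813666) fell by 0.49, and that of the growth factor gene Fgf2 and its neighbour Bbs12 (6896850) fell by 0.43. Clk2, a kinase of splicing factors, and Scamp3 (6911144) fell by 0.23, and Raly and a (6882491), an RNA-binding protein gene and the agouti locus, fell by 0.17. In 14 of the 30 rows past the threshold the log2 change was under 0.5 in size.

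Of the 864 rows, 7 had log2 changes of at least 1 in size without passing. Besides the receptor segment rows they include Nr1d1 and Thra (6791282), which encode nuclear receptors, the circadian repressor REV-ERB alpha and a thyroid hormone receptor, on overlapping genes. This row had 9.07, 9.43 and 9.18 on the transgenic arrays, against 8.08 and 8.20 on the wild type arrays. The change of 1.08 had an SE of 0.13 and an adjusted p of 0.0504, just outside the threshold. Just inside and outside it stood also Fgf2 and Bbs12, at an adjusted p of 0.0479, and Zmiz1 with Gm45915 (6817611), at 0.0502. Atp8a2 and Rps2 (6825132), a flippase gene and a ribosomal protein gene on different chromosomes, had a change of -1.19 (adjusted p = 0.0744). Olfr1036 and Olfr1034 (6878794) had 5.53, 4.93 and 5.28 on the transgenic arrays, against 4.81 and 3.54 on the wild type arrays. Its change of 1.07 had an SE of 0.49 and an adjusted p of 0.464, since the wild type arrays differed from each other by more than that change.

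Several large families were near 0. Of 142 rows with a chemosensory receptor symbol, 1 passed, the Sall2 row named above, and the median was -0.03. Of 40 rows with a ribosomal protein symbol, limma called 0, with 3 higher and 5 lower at an unadjusted p under 0.05, and the median was 0.00. Median centring, cyclic loess and quantile normalisation called 3 or 4 of those 40. In the same order, these settings called 809, 1022 and 1156 of all 14875 rows tested. Of 31 rows of metabolic enzyme families 1 passed, that of the glutathione transferases. By placement, 9 of the 85 rows whose symbols lie between 100 kb and 1 Mb apart passed (10.6%), including both Apol9 rows, and 13 of the 405 rows within 100 kb (3.21%), where 4.06% of all rows tested did. None of the 61 rows of overlapping genes passed in limma. Among them 5 were higher and 10 lower with no overlap between arrays, where 12.7% and 15.3% of all rows tested were. Of these 61 rows 21.3% had 5 different values on the 5 arrays, where 38.2% of all rows tested had.

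In the families and marker lists of the following rows no row with several symbols passed, and the row with the largest change in each gives their scale. Csta2 and Cstdc4 (6840753), cysteine protease inhibitor genes of the stefin family, had 4.21, 4.58 and 4.36 on the transgenic arrays, against 3.77 and 3.62 on the wild type arrays. The groups did not overlap, and the change of 0.68 had an adjusted p of 0.119. Lce1d and Lce1e (6906984), genes of the epidermal cornified envelope, had a change of -0.38 (adjusted p = 0.143), also without overlap. Cox7a2l with Gm6969 (6804268), the first a factor of respiratory chain supercomplexes, had 0.46 (adjusted p = 0.475), with transgenic arrays at 8.28, 7.95 and 8.03 and wild type arrays at 8.05 and 7.22, so that the groups overlapped. Atg16l1, an autophagy gene, and the small RNA gene Scarna6 (6751345) had -0.17 (adjusted p = 0.158). The haemoglobin row of Hbq1b, Hba-a2 and Hba-a1 (6779840), the 1 row measured for erythroid cells, had 6.82, 6.51 and 6.55 on the transgenic arrays, against 6.31 and 6.48 on the wild type arrays. The groups did not overlap, and the change of 0.23 had an adjusted p of 0.475. The macrophage lysozyme row of Lyz2 and Lyz1 (6777309) had 5.13, 5.03 and 5.76, against 4.90 and 5.13, and its groups overlapped. In no family, Kif18b (6791644), a mitotic kinesin gene whose symbol is repeated in its row, had 7.94, 8.16 and 8.30, against 8.62 and 9.11, a change of -0.73 (adjusted p = 0.226).

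Identical values limited what many rows can show. RMA values were equal to within 0.000005 on the log2 scale between some arrays in most rows, so that 369 of the 864 rows (42.7%) had 5 different values, and 77 rows (8.91%) had 1 value on all 5 arrays. Among rows with 1 symbol the shares were 38.0% and 10.9%. Of the 30 rows past the threshold 29 had 5 different values. When the fit was run on rows with 5 different values alone, 27 of the 369 passed as higher, where 6.77% of all such rows did, and 33 as lower, where 10.3% did. Of the 30 rows, 25 passed there too.

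A symbol of a shared row sometimes has a row of its own, which gives a second reading from other probes. Where a symbol had several rows of its own, only the one with the highest mean was used. There were 360 such pairs over 320 rows. For the 16 rows past the threshold that had one, 17 pairs could be set side by side. Of these, 12 had the same sign in both and 4 opposite signs, while 4921517D22Rik alone (6813667) had 1 value on all 5 arrays. Some single rows in the 12 pairs hardly changed, so their sign says little. H2bc8 alone (6907256) had -0.0012 (SE 0.13), beside -0.47 in its shared row, and Rdh1 alone (6771586) had 0.0024 (SE 0.06), beside 0.24. The pairs hold 16 different single-symbol rows, none of which passed in limma. Mef2d with AW047730 had -0.49, and the single row of Mef2d (6899100) had -0.46 (SE 0.16, adjusted p = 0.296). The row of Il6ra and Msto1 had 0.47, and the single row of Msto1 (6911286) had 0.39 (adjusted p = 0.092). Zfp456 alone (6814035) had 0.57 (adjusted p = 0.0648), above both of the shared rows that rose. Ms4a4d alone (6868110) had -0.13, beside -1.28 in the row it shares with Ms4a4c, and Sp9 alone (6878138) had 0.01, beside 1.02 in the row it shares with Gpr155. Twistnb alone (6794339) had 0.01, beside 0.45 in its row with Trat1. The pairs of opposite sign included a alone (6882505), at 0.50 (adjusted p = 0.475) beside -0.17 in its row with Raly, and Gm5620 alone (6853352), at 0.17 (adjusted p = 0.475) beside -0.64 in its row with the tubulin genes. They also included Bbs12 and Olfr1512, each at 0.02 alone, beside -0.43 in the row with Fgf2 and -0.63 in the row with Sall2.

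The reverse case, a single-symbol row that passed beside a shared row that did not, occurred in 4 pairs. Cd55 encodes decay-accelerating factor, a complement inhibitor on T cells. Its own row (6762094) had 4.83, 4.92 and 4.79 on the transgenic arrays, against 6.18 and 6.31 on the wild type arrays. That is a change of -1.40 (SE 0.066, adjusted p = 0.0125), whereas the row of Cd55b and Cd55 (6762092) had -0.10 (adjusted p = 0.465). The shared row was dim, at a mean log2 intensity of 4.08 beside 5.41 for the own row, where 25% of all rows tested lay below 5.47. Plec alone (6836805), a cytoskeletal linker gene, had -0.60 and its row with Parp10 (6836806), which held 3 different values on the 5 arrays, 0.03. Znf41-ps alone (6918462) had 1.13 and its row with Rex2 (6918382) 0.03, though that row was dim, at a mean of 3.97, and held 2 different values. Appbp2 alone had -0.05 and its row with Appbp2os 0.22. The values lay farthest apart for Capn3, a calcium-dependent protease gene, whose own row (6880578) had -1.83 (SE 0.32, adjusted p = 0.0932) beside -0.10 in the row it shares with Ganc (6880577). The row with Ganc held 2 different values on the 5 arrays, 7.49 on wild type replicate 2 and 7.29 on all others. Why the Capn3 and Ganc rows differ was not tested. Over all 360 pairs the median absolute difference between the changes was 0.15, and 47 pairs differed by more than 0.5. In the 103 pairs in which both rows had 5 different values, the changes correlated at 0.24 across pairs, which share their arrays and some of their rows.

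**Figure D4:**
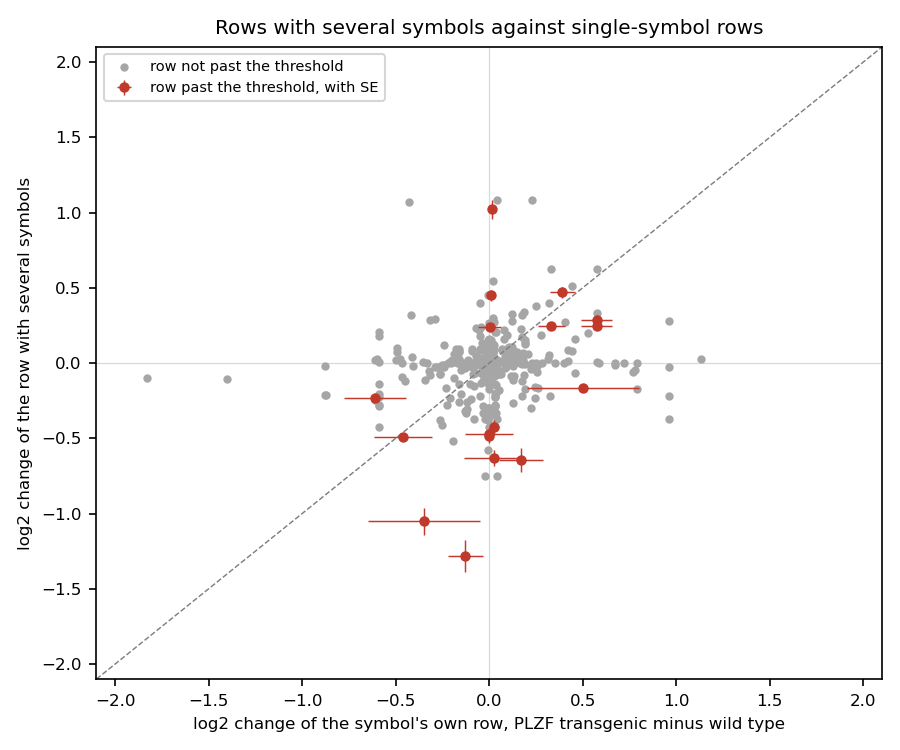
Log2 change, PLZF transgenic minus wild type, of a row with several symbols (vertical axis) against that of a single-symbol row of one of its symbols (horizontal axis), for 360 pairs. Red points with standard errors are the 17 pairs whose shared row passed the threshold, the dashed line marks equal changes, and many points lie away from it.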

How the data were processed

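The series measured RNA of sorted CD4 single-positive thymocytes on 5 Affymetrix mouse exon arrays. The deposited table holds 1 intensity per row and array, which the authors made with RMA in Affymetrix Expression Console, with the mm9 build named, per the submitters' processing notes. The version of each is not given in the sources used here. Values are linear intensities, so log2(intensity + 1) was tested, and no background or detection call accompanies them. The number of arrays limits the precision.

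Rows were named from the platform annotation, and positions relative to each other and start regions came from RefSeq (GRCm38.p6). Lists and rows were chosen with earlier results of these data known. limma 3.58.1 in R 4.3.3 (lmFit, eBayes, genotype alone) ran over 14875 rows with at least 1 symbol, without collapsing rows to genes, with Benjamini-Hochberg adjustment. The prior degrees of freedom were 0.509. Exact permutation over 3 and 2 arrays has a smallest p of 0.1, so it was not used. Named rows were the 15 largest rises and falls past the threshold with non-overlapping arrays, the leading rows of each symbol class, family and gene list, and the rows whose change lay farthest from that of a symbol's own row or was largest in both. The Igtp, Ifi204, Nr1d1, Kif18b, Trgv, Trav12, Tcra and histone rows that did not pass, and the single-symbol rows of Plec, Appbp2 and Znf41-ps, were added after their values were seen. On simulated data of 14875 rows, the test recovered 77 of 100 rows given a log2 change of 1 and 89 of 100 given a change of 2, with 10 calls among 14675 rows given none. The changed rows were drawn from all rows, each simulated with its own spread, which is small in many rows with identical values. Of all rows tested 38.2% had 5 different values, so these counts are not the recovery in such rows. Recovery in data with identical values between arrays, with array weights or with an array left out was not tested. Alternatives covered the replicate block, moderation, scaling, pseudocount, filters, rows tested, array weights, thresholds and each array left out. Same-numbered arrays had deviations that correlated at 0.0881 and 0.0052 over 5687 rows. Start regions were aligned with Biopython 1.88.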

Additional observations from a re-analysis of the deposited data

How the results depend on the processing

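The counts were 12 rows higher and 18 lower in PLZF transgenic arrays. With the replicate block both fell to 0 in limma, with 57 higher and 78 lower at an unadjusted p under 0.05. In that fit transgenic replicate 3 has no wild type partner, so the changes rest on replicates 1 and 2 of each genotype and few degrees of freedom remain. The labels pair the arrays by number alone. The correlations of same-numbered arrays were small, but the 2 wild type arrays deviate from their mean by equal and opposite amounts. These correlations therefore cannot settle whether the arrays were paired. With array weights both counts were 0 as well, with 33 and 40 at an unadjusted p under 0.05. Over all rows of the table the counts were 1 and 1. Median centring gave 22 higher and 24 lower, cyclic loess 26 and 31, quantile normalisation 32 and 31, the filter on dim rows 22 and 28, and rows with 5 different values 27 and 33. A threshold of 0.01 left 0 and 0, beside 61 and 79 at an unadjusted p under 0.05. A threshold of 0.1 gave 27 and 31, and a log2 change of at least 1 gave 2 and 4. Leaving out 1 array gave between 0 and 64 higher and between 0 and 102 lower. The lowest counts came without transgenic replicate 1, 2 or 3 and the highest without a wild type array. Leaving out 1 array from the fit on rows with 5 different values, a combination chosen after seeing the data, gave between 6 and 12 higher (6 and 7 without transgenic replicate 2 and 3) and between 13 and 36 lower. The cause of these shifts was not tested. Passing the test had already selected rows with a small spread between arrays, and none of the 30 rows changed direction under any alternative run. Among named rows that did not pass, 3 did, all near 0 or widely spread: Gzme and Gzmd (0.04 without wild type replicate 1), Cd24a and Gm6212 (-0.24 without it) and Pcdhga12 and Pcdhga10 (-0.02 without transgenic replicate 1). Of the 30 rows, 30 passed with cyclic loess and with no pseudocount, 29 with median centring, 28 with quantile normalisation and 25 with an intensity trend and robust fit. With 5 arrays and no detection calls, dim rows cannot be told from background.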
